A study of Mus musculus with 6 samples.

Results

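The 34 genes described here carry out and regulate NEDDylation of cullins, the scaffold proteins of the cullin-RING ubiquitin ligases. They were taken by gene name from a fixed list of conjugation enzymes, RING partners, cullins, DCN1-like proteins, COP9 signalosome subunits and SCF components, and all 34 were found in the table of 25102 genes. Expression was measured by RNA-seq of poly(A) RNA, as FPKM (fragments scaled to transcript length and to the library's mapped total), in 6 livers of male C57BL/6J mice that were 2 weeks old when the groups were formed. The treated group (DEN+CCl4, 3 libraries) received diethylnitrosamine, a carcinogen activated by hepatocytes, as 1 intraperitoneal injection of 1 mg/kg. About 6 weeks later these mice began to receive carbon tetrachloride, a hepatotoxin, at 0.2 mL/kg and 2 injections per week, for at most 14 weeks. The Control group (3 libraries) is described by the labels only as control, with no mention of a vehicle. The labels call the treated livers a model of hepatocellular carcinoma and do not say whether tumour or surrounding tissue was taken. No label ties a library to a named animal, so p-values measure the spread between these libraries. Wherever 3 values of a group follow each other, they are those of its replicates 1, 2 and 3 in this order. In bulk liver, fewer cells of a type and less RNA per cell cannot be told apart.

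NEDD8 is a small ubiquitin-like protein. It is activated by the heterodimer of Nae1 and Uba3, passed to the conjugating enzymes Ube2m or Ube2f, and attached to one lysine near the C-terminus of a cullin with the help of a RING protein (Rbx1 or Rnf7) and a DCN1-like protein. The attached NEDD8 switches the ligase on, the COP9 signalosome removes it through its metalloprotease subunit Cops5, and Cand1 then exchanges the substrate receptors of the unmodified cullin. The series title joins this system to hepatocellular carcinoma through NEDDylation of cullin 1 and the stability of YAP and TAZ, so the comparison asked here is whether the transcripts of the machinery differed between DEN+CCl4 and Control liver. Transcript levels do not measure how much NEDD8 is bound to a cullin.

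The coding bases around the acceptor lysine are shown because this is the residue on which the modification named in the series title is placed. Each cullin window has 45 bases of the longest GENCODE M21 coding sequence (GRCm38), 5′ to 3′, with the acceptor codon in capitals, and the window of Cul2, the remaining cullin of the 34 genes, is not shown here. The codon was located by the conserved residues (isoleucine or valine, arginine or glutamine, and methionine) that precede the lysine. The last line gives 42 bases near the end of the NEDD8 coding sequence, with the codons of the paired glycines that end mature NEDD8 in capitals; the last of them forms the bond with the lysine. The bases after them encode the tail that is cut off before conjugation, for which Senp8 is one of the proteases.
Cul1: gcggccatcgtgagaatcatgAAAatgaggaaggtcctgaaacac
Cul3: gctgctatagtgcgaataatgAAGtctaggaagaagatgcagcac
Cul4a: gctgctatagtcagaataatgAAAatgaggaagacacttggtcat
Cul4b: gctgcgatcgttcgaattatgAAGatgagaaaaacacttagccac
Cul5: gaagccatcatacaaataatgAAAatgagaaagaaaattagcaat
Nedd8: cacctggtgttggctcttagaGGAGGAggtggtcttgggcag

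The Cul1 acceptor is codon 720 of 776, at chr6:47524538-47524540 on the plus strand. It is codon 712 of 768 in Cul3 (chr1:80269249-80269251, minus strand), codon 705 of 759 in Cul4a (chr8:13144358-13144360, plus strand), codon 916 of 970 in Cul4b (chrX:38537191-38537193, minus strand) and codon 799 of 855 in Cul5 (chr9:53617987-53617989, minus strand). Of the 45 bases, 32 matched Cul1 in Cul4a, 31 in Cul4b, 30 in Cul3 and 28 in Cul5. The NEDD8 glycine pair begins at codon 75 of 81 (chr14:55662547-55662552, minus strand). Acceptor codons were AAA in Cul1, Cul4a and Cul5 and AAG in Cul3 and Cul4b.

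None of the 34 genes passed the test for a difference between DEN+CCl4 and Control liver. Testing required a gene to average 1 FPKM or more, which 23 of the 34 reached. With limma on log2(FPKM + 1) and Benjamini-Hochberg adjustment over all 8528 tested genes, 0 of these 23 were higher and 0 lower at an adjusted p under 0.05. By the same rule 0.833% of all tested genes were higher and 0.645% lower. Before adjustment, 0 of the 23 genes and 7.6% of all tested genes had a limma p under 0.05. With no filter on low values all 34 were fitted and limma called 0 of them, with a smallest adjusted p of 0.875. That fit called 0 of all 24933 genes, with the same smallest limma adjusted p, so its count does not set the 34 genes apart. The smallest limma adjusted p among the 23 was 0.946 and the smallest unadjusted one 0.164.

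The libraries differed in scale, which touches every value below. Genes encoded by the mitochondrial genome took 64.2% of the summed FPKM in DEN+CCl4 replicate 3 and 26.6% to 43.0% in the other 5 libraries. The median level of the tested genes was 1.19 FPKM there, against 3.43 to 4.46 FPKM in the other libraries. Over all tested genes the fold changes had a median of -0.27 on the log2 scale. It was 0.01 after median-ratio scaling, in which a library's values are divided by the median, over genes, of their ratio to the gene's geometric mean (here called scaled FPKM). After this scaling limma again called 0 of the 23 genes, and 0% of all tested genes, with a smallest adjusted p of 0.592 among the 23 and of 0.198 among all. The median log2 fold change of the 23 genes was -0.29 as deposited and 0.04 after scaling, each close to that of all tested genes. As deposited 20 of the 23 fold changes were below 0, against 74.4% of all tested genes, and after scaling 10 of the 23 were, against 48.6%.

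**Figure D1:**
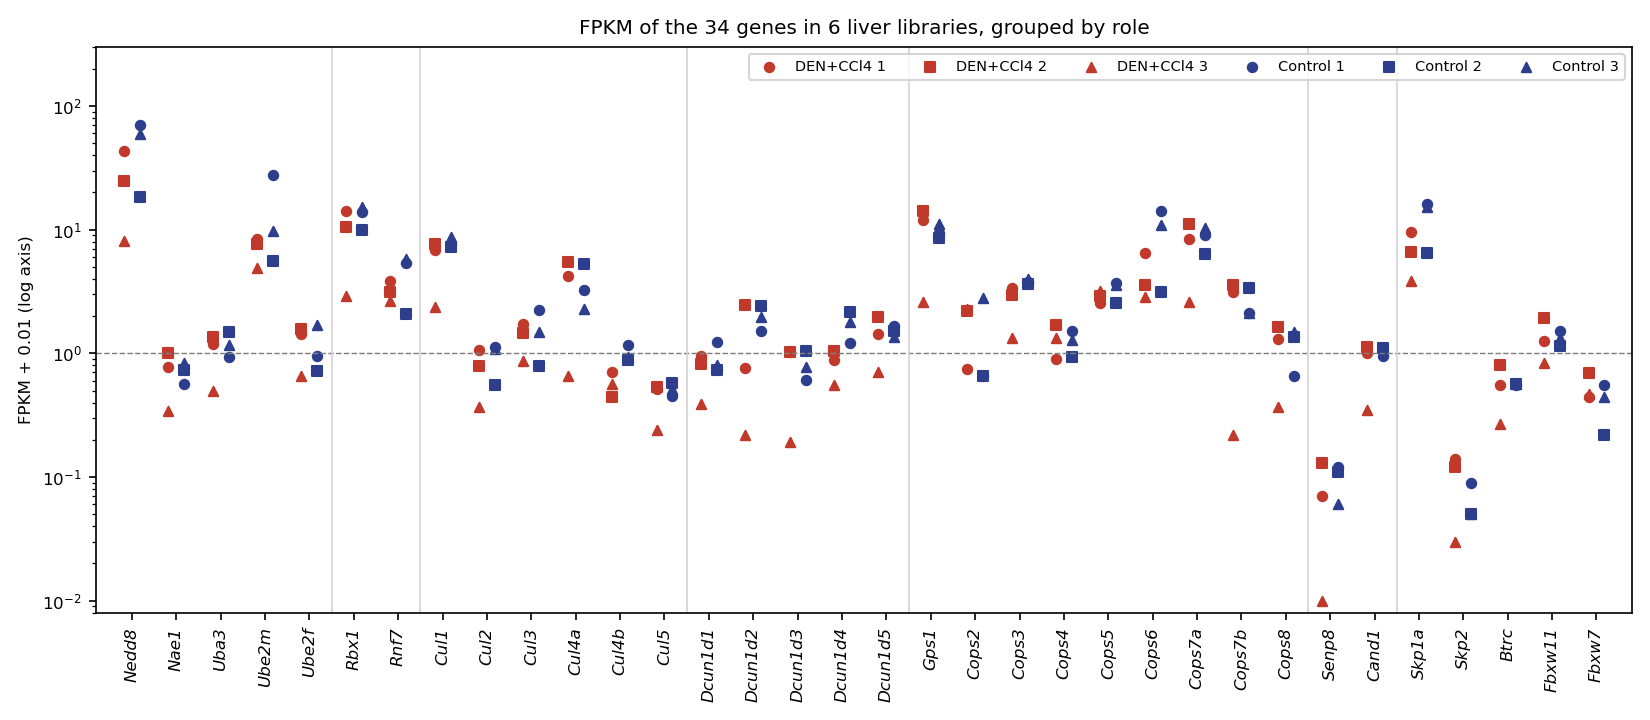
FPKM of the 34 genes in each library on a log axis after adding 0.01, with DEN+CCl4 libraries in red to the left and Control libraries in blue to the right of each gene, vertical lines between roles and a dashed line at the 1 FPKM limit. Nedd8 is the highest gene in all 6 libraries, and the triangle of DEN+CCl4 replicate 3 is the lowest point for 27 of the 34 genes.

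The levels spanned a wide range between members. Nedd8, Rbx1 and Ube2m averaged 10 FPKM or more, 20 genes had a mean of 1 to 10 FPKM, and 11 had a mean under 1 FPKM. In each of the 6 libraries Nedd8 ranked first of the 34. It took 30.0%, 19.2% and 16.3% of the summed FPKM of the 34 genes in DEN+CCl4, and 34.1%, 17.9% and 32.5% in Control. The 2 ranges overlapped.

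Nedd8 (chr14:55662263-55672124) had 43.5, 24.7 and 8.05 FPKM in DEN+CCl4, and 70.5, 18.3 and 58.9 FPKM in Control. Control replicate 2 lay below 2 of the 3 treated livers, so the groups overlapped. The mean was 25.4 ± 17.7 FPKM in DEN+CCl4 liver and 49.2 ± 27.4 FPKM in Control liver (SD, n = 3 each). Its log2 fold change of -1.0 was the lowest of the 23, with a 95% interval of -2.78 to 0.78 (limma adjusted p = 0.996). After scaling the fold change was -0.55 (-1.83 to 0.73), and the scaled FPKM were 34.1, 17.98 and 22.6 in DEN+CCl4 and 60.5, 15.8 and 46.8 in Control liver.

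The activating enzyme was expressed far lower than its substrate. Nae1, the regulatory subunit, read 0.77, 1.00 and 0.33 FPKM in DEN+CCl4 and 0.55, 0.72 and 0.82 FPKM in Control, and was under the limit for testing. Uba3, the catalytic subunit, read 1.19, 1.34 and 0.49 FPKM in DEN+CCl4 and 0.92, 1.48 and 1.15 FPKM in Control (log2 fold change -0.14, limma adjusted p = 0.996). In both genes DEN+CCl4 replicate 3 was lowest as deposited and highest after scaling, at 0.926 scaled FPKM for Nae1 and 1.38 for Uba3. Within a library the log2 ratio of Nae1 to Uba3, which does not depend on the library's scale, was -0.54 ± 0.11 in DEN+CCl4 and -0.76 ± 0.28 in Control liver.

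Of the conjugating enzymes, Ube2m, which serves cullins paired with Rbx1, was the more abundant. It read 8.34, 7.61 and 4.85 FPKM in DEN+CCl4 and 27.5, 5.61 and 9.78 FPKM in Control. The highest and the second lowest of the 6 values were thus both controls, and the controls differed among themselves by 4.90-fold. Its log2 fold change was -0.70 (-2.12 to 0.71, limma adjusted p = 0.996) and -0.27 after scaling. Ube2f, which serves Cul5 paired with Rnf7, read 1.43, 1.57 and 0.64 FPKM in DEN+CCl4 and 0.94, 0.71 and 1.69 FPKM in Control. Its log2 fold change of 0.07 (-0.73 to 0.86) was 1 of the 3 that were above 0 as deposited. Their log2 ratio, Ube2m to Ube2f, was 2.58 ± 0.32 in DEN+CCl4 and 3.46 ± 1.24 in Control liver, with Control replicate 1 alone at 4.87.

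Rbx1, the RING protein of cullins 1 to 4, read 14.2, 10.4 and 2.92 FPKM in DEN+CCl4 and 14.0, 10.01 and 15.3 FPKM in Control. DEN+CCl4 replicates 1 and 2 lay within the Control range. Rnf7, the RING protein of Cul5, read 3.80, 3.15 and 2.63 FPKM in DEN+CCl4 and 5.38, 2.06 and 5.73 FPKM in Control, with 1 control below all treated libraries. Fold changes were -0.66 (-2.11 to 0.79) for Rbx1 and -0.29 (-1.41 to 0.83) for Rnf7 on the log2 scale, both at a limma adjusted p of 0.996. After scaling Rnf7 stood at 7.38 in DEN+CCl4 replicate 3, above all other libraries, while Rbx1 stood at 8.20 there, below all 3 controls.

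**Figure D2:**
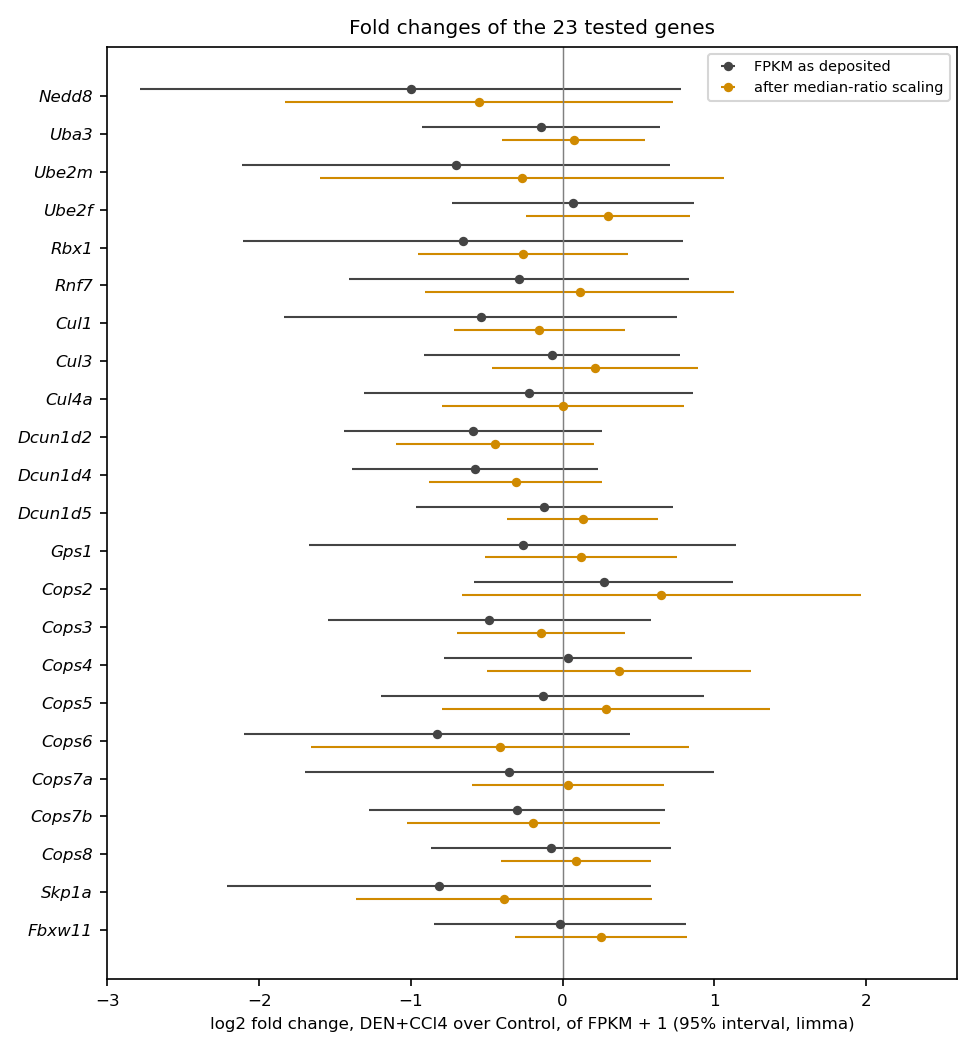
Log2 fold change of FPKM + 1, DEN+CCl4 over Control, for the 23 tested genes, with 95% intervals from limma, from FPKM as deposited (grey) and after median-ratio scaling (orange). All 23 intervals include 0 in both, and scaling moves each estimate upwards, with the orange intervals narrower for most genes.

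The intervals show what size of difference the data leave room for. As deposited, all 23 included 0 and 7 lay entirely within 1 of 0 on the log2 scale. After scaling 13 of the 23 did. Being within 1 of 0 means at most a 2-fold change of FPKM + 1 in either direction. For low genes it leaves room for a larger change of FPKM itself. The widths ran from 1.57 to 3.57 log2 units as deposited and from 0.946 to 2.66 after scaling. A p above the threshold at this precision does not show that a gene was equal in the 2 groups.

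Cul1, the cullin of the SCF ligases and the one in the series title, was the most abundant cullin in all 6 libraries. It read 6.82, 7.59 and 2.34 FPKM in DEN+CCl4 and 7.62, 7.27 and 8.65 FPKM in Control. DEN+CCl4 replicates 1 and 3 lay below all controls, and replicate 2 lay inside the Control range. The log2 fold change was -0.54 (-1.83 to 0.76, limma adjusted p = 0.996). After scaling it was -0.15 (-0.72 to 0.41), with 5.34, 5.53 and 6.57 scaled FPKM in DEN+CCl4 and 6.53, 6.29 and 6.87 in Control liver. On that scale DEN+CCl4 replicates 1 and 2 were below all controls and replicate 3 was among them. The controls differed by 1.19-fold for this gene.

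Cul3, whose adaptors are BTB proteins such as Keap1, read 1.70, 1.46 and 0.86 FPKM in DEN+CCl4 and 2.22, 0.78 and 1.48 FPKM in Control (log2 fold change -0.07, limma adjusted p = 0.996). Cul4a, which works with Ddb1, read 4.21, 5.43 and 0.64 FPKM in DEN+CCl4 and 3.27, 5.29 and 2.26 FPKM in Control (-0.22, limma adjusted p = 0.996, and 0.00 after scaling). Its values ran from the highest to the lowest of the series within the treated group.

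The remaining cullins were under the limit for testing. Cul2, the cullin of the VHL ligase, read 1.05, 0.78 and 0.36 FPKM in DEN+CCl4 and 1.11, 0.54 and 1.08 FPKM in Control. Cul5, the cullin of SOCS-box receptors, read 0.50, 0.52 and 0.23 FPKM in DEN+CCl4 and 0.44, 0.57 and 0.50 FPKM in Control. Both genes overlapped between the groups. Cul4b, the X-linked paralog of Cul4a, read 0.69, 0.43 and 0.55 FPKM in DEN+CCl4 and 1.16, 0.88 and 0.92 FPKM in Control, so that every treated library lay below every control. This separation was lost after scaling, where DEN+CCl4 replicate 3 was highest at 1.54. Replicates 1 and 2 stood at 0.541 and 0.313, against 0.731 to 0.994 in the controls. As deposited 5.35% of all tested genes were separated in this direction, and the share among genes under the limit was not counted.

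Shares of the summed FPKM within a family do not depend on a library's scale. Cul1 made up 45.6%, 46.8% and 47.0% of the 6 cullins in DEN+CCl4, and 48.2%, 47.4% and 58.1% in Control. All 3 treated shares were below all 3 Control shares, though DEN+CCl4 replicate 3 and Control replicate 2 differed by less than 1 percentage point. The difference of -4.77 percentage points gave an exact two-sided permutation p of 0.1, the smallest that 3 against 3 libraries allow, and 0.6 after adjustment over the 6 cullins. Of the 15 cullin and COP9 shares it was the 1 whose groups did not overlap, and without Control replicate 3 the difference was -1.34 percentage points. Cul4a was 6.10-fold and 12.6-fold above Cul4b in DEN+CCl4 replicates 1 and 2 and 1.16-fold in replicate 3, against 2.82-fold, 6.01-fold and 2.46-fold in Control, and these ranges overlapped.

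**Figure D3:**
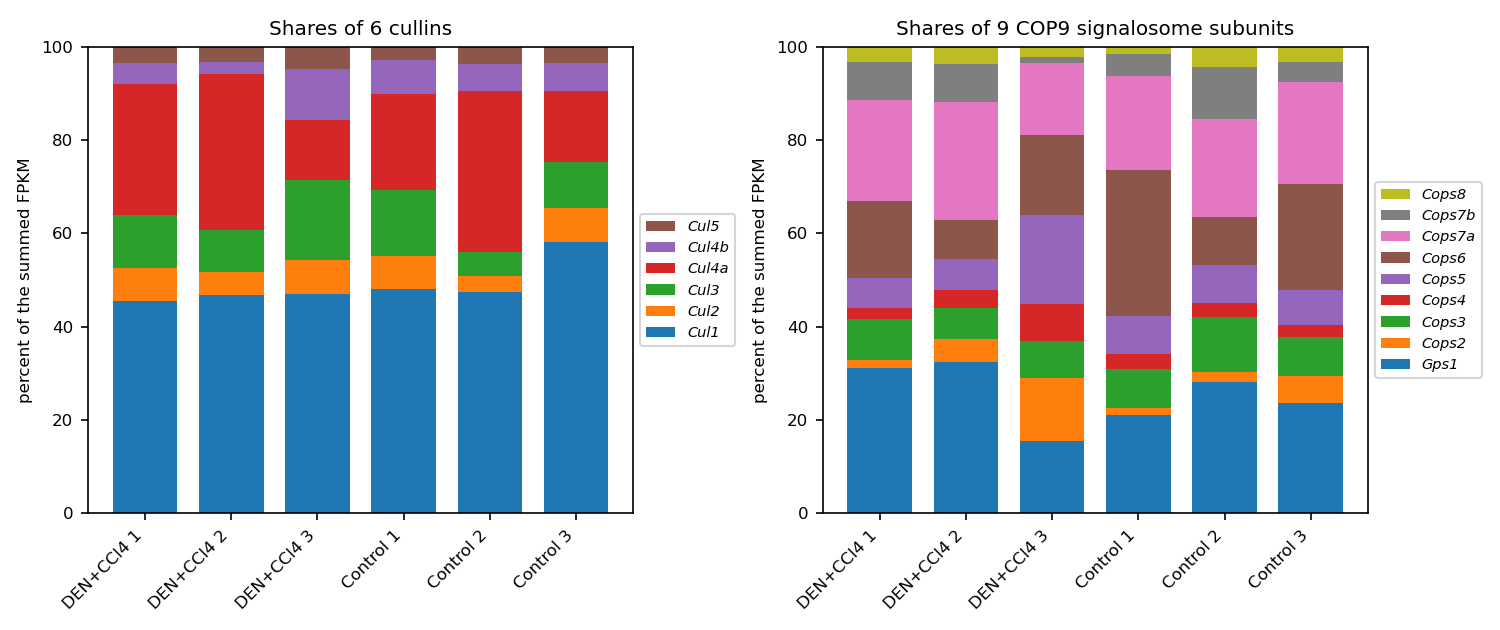
Stacked bars of each gene's percent of the summed FPKM of the 6 cullins (left panel) and of 9 COP9 signalosome subunits, Cops9 not included (right panel) in each library, DEN+CCl4 left of Control. Cul1 takes 45.6% to 58.1% of the cullin sum everywhere. DEN+CCl4 replicate 3 has the largest Cops2, Cops4 and Cops5 shares and the smallest Gps1, Cops7a and Cops7b shares. Among the cullins it has the largest Cul3, Cul4b and Cul5 shares and the smallest Cul4a share.

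DCN1-like proteins hold the conjugating enzyme on the cullin and speed NEDD8 transfer. Dcun1d4 read 0.87, 1.04 and 0.54 FPKM in DEN+CCl4 and 1.21, 2.16 and 1.78 FPKM in Control, so every treated library lay below every control. Its log2 fold change was -0.57 (-1.39 to 0.24), and its limma adjusted p of 0.946 was the smallest of the 23 genes. After scaling DEN+CCl4 replicate 3 stood at 1.52, inside the Control range of 1.04 to 1.87, and the fold change was -0.31 (-0.88 to 0.26). Dcun1d2 read 0.75, 2.46 and 0.21 FPKM in DEN+CCl4 and 1.5, 2.40 and 1.94 FPKM in Control, with DEN+CCl4 replicate 2 above all controls. The log2 fold change was -0.59 (-1.44 to 0.26, limma adjusted p = 0.953) and -0.45 after scaling. Dcun1d5 read 1.42, 1.95 and 0.70 FPKM in DEN+CCl4 and 1.64, 1.51 and 1.35 FPKM in Control liver, with overlap between the groups. Dcun1d1 and Dcun1d3 were not tested and averaged 0.710 ± 0.293 and 0.737 ± 0.482 FPKM in DEN+CCl4, against 0.917 ± 0.274 and 0.800 ± 0.217 FPKM in Control liver.

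The ratio of Dcun1d4 to Dcun1d5 within a library was -0.71, -0.91 and -0.37 on the log2 scale in DEN+CCl4 and -0.44, 0.52 and 0.40 in Control. Only Control replicate 1 fell among the treated values. The difference of -0.82 had an exact two-sided permutation p of 0.2, and 0 of the 10 ratios compared between members reached the smallest possible p of 0.1.

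Removal of NEDD8 from cullins is the work of the COP9 signalosome, of which 9 subunits are among the 34 genes, and all 9 passed the limit for testing. Cops9 is not one of the 34 and is left out of the sums and shares given here. Fold changes ran from -0.83 (Cops6) to 0.27 (Cops2) on the log2 scale as deposited, with a median of -0.26, and from -0.41 to 0.65 with a median of 0.09 after scaling. Cops5, the metalloprotease, read 2.52, 2.92 and 3.17 FPKM in DEN+CCl4 and 3.66, 2.55 and 3.57 FPKM in Control. Its level in DEN+CCl4 replicate 3 lay inside the range of the other libraries, while 27 of the 34 genes were lowest there. Its log2 fold change was -0.13 (-1.20 to 0.93, limma adjusted p = 0.996).

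Cops2 and Cops4 shared this pattern, as did Rnf7, Cul3, Cul4b and Fbxw7 outside the COP9 signalosome. Cops2, a core scaffold subunit, read 0.73, 2.20 and 2.26 FPKM in DEN+CCl4 and 0.65, 0.65 and 2.77 FPKM in Control, and the controls alone differed by 4.26-fold. Cops4 read 0.89, 1.67 and 1.33 FPKM in DEN+CCl4 and 1.5, 0.92 and 1.27 FPKM in Control liver. Cops7b was lowest in DEN+CCl4 replicate 3, at 3.11, 3.56 and 0.21 FPKM in DEN+CCl4 and 2.11, 3.39 and 2.09 FPKM in Control. Of the COP9 sum, Cops5 took 6.47%, 6.67% and 19.0% in DEN+CCl4 and 7.52% to 8.34% in the controls, and Cops2 took 1.88%, 5.03% and 13.6% in DEN+CCl4 and 1.44% to 5.84% in the controls. The treated replicates thus stood on both sides of the controls for Cops5 (exact two-sided permutation p = 1). The ratio of Cops7a to Cops7b, alternative subunits of the complex, was 2.72-fold and 3.12-fold in DEN+CCl4 replicates 1 and 2 and 12.2-fold in replicate 3, against 1.89-fold to 4.94-fold in the controls.

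Among the other subunits, Gps1 read 12.1, 14.2 and 2.57 FPKM in DEN+CCl4 and 9.47, 8.57 and 11.2 FPKM in Control, with DEN+CCl4 replicates 1 and 2 above all controls and replicate 3 below them. Cops3 read 3.39, 2.94 and 1.32 FPKM in DEN+CCl4 and 3.78, 3.61 and 3.96 FPKM in Control liver. It was, with Dcun1d4, 1 of 2 tested members whose groups did not overlap as deposited, both lower in DEN+CCl4, against 5.35% of all tested genes in that direction. In the higher direction 0 of the 23 did, against 3.01%. After scaling 0 of the 23 were separated in either direction, against 7.63% of all tested genes higher and 6.52% lower, and Cops3 was highest in DEN+CCl4 replicate 3 at 3.71. Cops6 read 6.46, 3.58 and 2.87 FPKM in DEN+CCl4 and 14.1, 3.14 and 10.8 FPKM in Control liver, with Control replicate 2 again among the treated values. Cops7a read 8.46, 11.1 and 2.57 FPKM in DEN+CCl4 and 9.10, 6.40 and 10.3 FPKM in Control liver, and Cops8 read 1.29, 1.63 and 0.36 FPKM in DEN+CCl4 and 0.65, 1.34 and 1.49 FPKM in Control liver. These 3 genes overlapped between the groups on both scales, with limma adjusted p from 0.978 to 0.996.

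**Figure D4:**
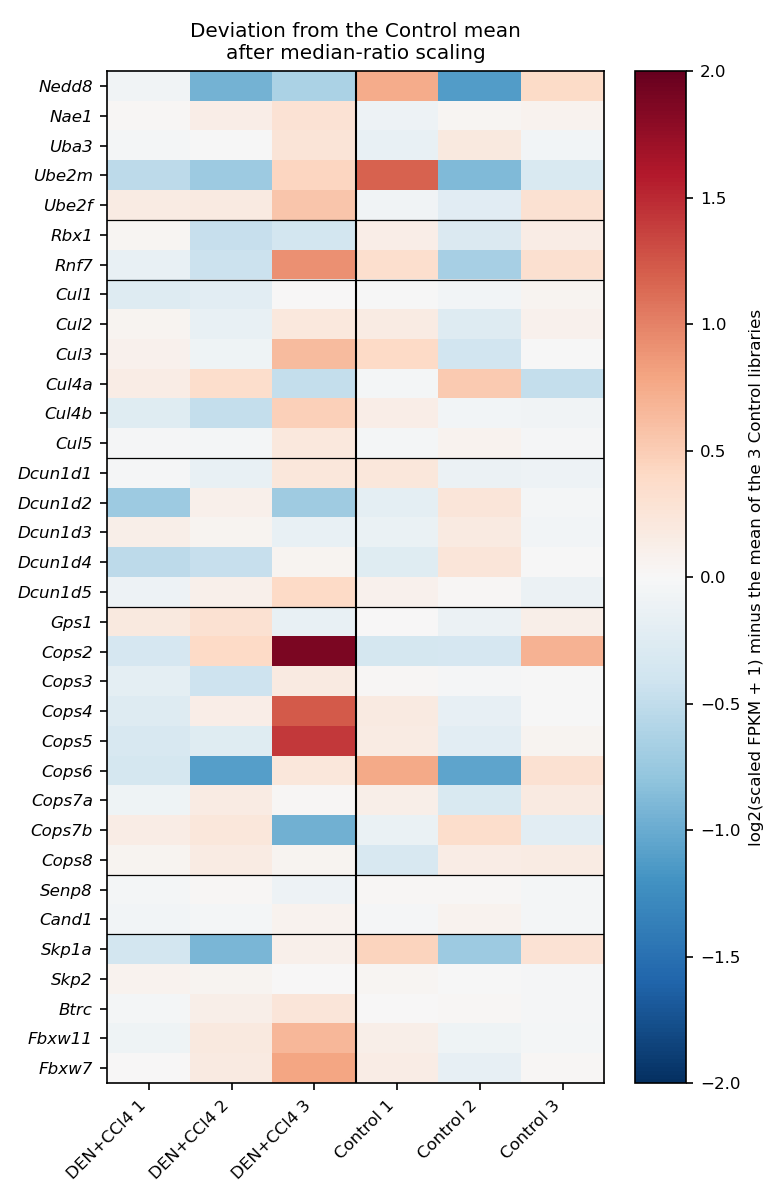
Heat map of log2(scaled FPKM + 1) minus the mean of the 3 Control libraries for the 34 genes (rows, by role) in the 6 libraries (columns, DEN+CCl4 left of the vertical line); red is above and blue below the Control mean. The darkest cells are Cops2, Cops5 and Cops4 in DEN+CCl4 replicate 3, and Nedd8, Ube2m, Cops6 and Skp1a are blue in both DEN+CCl4 replicate 2 and Control replicate 2.

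Senp8, a NEDD8 protease that also trims the NEDD8 precursor, was near the bottom of the scale, with readings of 0.06 and 0.12 FPKM in the first 2 DEN+CCl4 libraries and a listed 0 in the third, against 0.11, 0.10 and 0.05 FPKM in Control. Cand1, the exchange factor of unmodified cullins, read 0.99, 1.11 and 0.34 FPKM in DEN+CCl4 and 0.95, 1.09 and 1.01 FPKM in Control. DEN+CCl4 replicate 1 lay inside the Control range and replicate 2 just above it, and after scaling all 6 libraries fell between 0.776 and 0.954. Neither gene was tested. The values are deposited to 2 decimals, so readings as low as those of Senp8 carry large rounding error.

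The SCF adaptor Skp1a, which joins F-box proteins to Cul1, read 9.52, 6.58 and 3.82 FPKM in DEN+CCl4 and 16.1, 6.45 and 15.4 FPKM in Control. Control replicate 2 stood among the treated livers, and the log2 fold change was -0.81 (-2.21 to 0.58, limma adjusted p = 0.996). Skp2, the F-box receptor that directs degradation of the cell cycle inhibitor p27, read 0.13, 0.11 and 0.02 FPKM in DEN+CCl4 and 0.08, 0.04 and 0.04 FPKM in Control liver, and was not tested. Relative to Skp1a, Skp2 stood at -6.19, -5.90 and -7.58 on the log2 scale in DEN+CCl4 and at -7.65, -7.33 and -8.59 in Control. This was the widest mean difference of the 10 ratios, at 1.30, with an exact two-sided permutation p of 0.2. Like Senp8, Skp2 read so low that its values, and with them this ratio, carry large rounding error.

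The F-box receptors that recognise phosphorylated substrates showed no separation of the groups. Btrc, a receptor of beta-catenin and of YAP and TAZ, read 0.54, 0.80 and 0.26 FPKM in DEN+CCl4 and 0.54, 0.55 and 0.55 FPKM in Control. Its paralog Fbxw11 read 1.24, 1.92 and 0.83 FPKM in DEN+CCl4 and 1.5, 1.14 and 1.32 FPKM in Control liver (log2 fold change -0.02, -0.85 to 0.81, limma adjusted p = 1.00). Fbxw7, a receptor of cyclin E and Myc, read 0.43, 0.68 and 0.46 FPKM in DEN+CCl4 and 0.54, 0.21 and 0.43 FPKM in Control liver. For Btrc and Fbxw11 the treated libraries lay on both sides of the controls, and the log2 ratio of Btrc to Fbxw11 was -1.38 ± 0.26 in DEN+CCl4 and -1.26 ± 0.21 in Control liver.

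Control replicate 2 often stood apart from the other controls. It was the lowest control for 19 of the 34 genes, and for 10 of them it stood under 60% of the mean of the other 2 controls. The ratio was 0.252 for Cops6, 0.283 for Nedd8, 0.301 for Ube2m, 0.371 for Rnf7, 0.380 for Cops2, 0.410 for Skp1a, 0.422 for Cul3, 0.433 for Fbxw7, 0.493 for Cul2 and 0.540 for Ube2f. Among these are the 5 tested genes with the shortest summed exon lengths, from 1261 bases (Nedd8) to 2525 bases (Cops6), but also longer ones such as Cops2 (3549 bases), Cul3 (4873 bases) and Ube2f (8842 bases). Over the 23 genes, Spearman's rho between exon length and the log2 ratio of Control replicate 2 to the other controls, after scaling, was 0.714, and over 8520 tested genes it was 0.313. Both are descriptions across genes that share the same libraries, and the part of transcript length in the comparison of the groups was not tested. Without Control replicate 2 the limma log2 fold change of Nedd8 was -1.59 and that of Cops6 -1.39. In that fit 0 of the 23 genes passed, while 8 of all 8528 tested genes were called higher and 6 lower. For both genes this fold change was the lowest of all settings tried. Across 24 settings it ran from -1.59 to -0.18 for Nedd8 and from -1.39 to -0.03 for Cops6. Without DEN+CCl4 replicate 3 that of Nedd8 was -0.37.

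**Figure D5:**
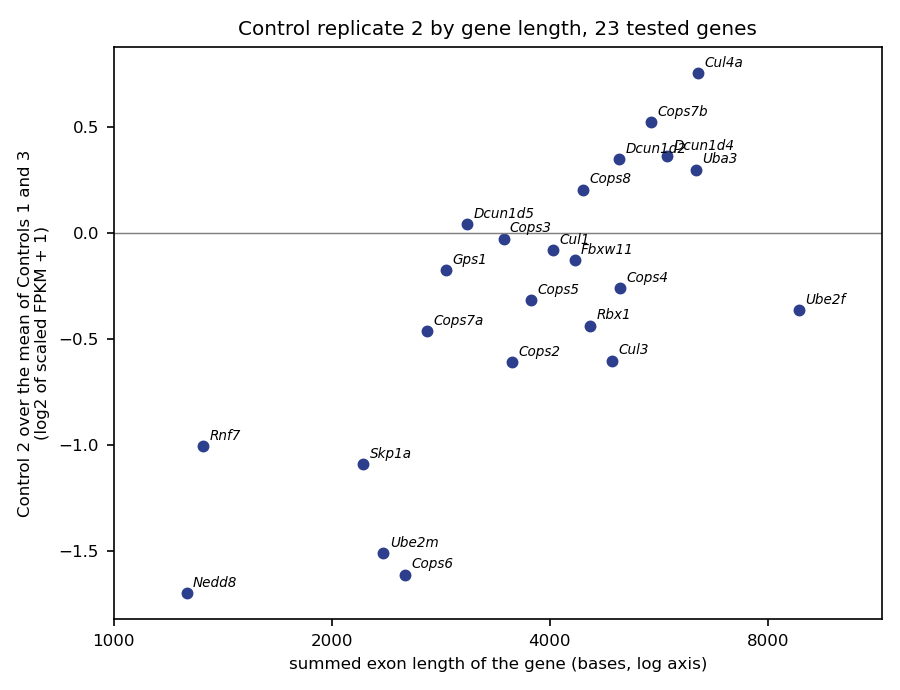
Log2 ratio of Control replicate 2 to the mean of Control replicates 1 and 3, from scaled FPKM + 1, against the summed exon length of each of the 23 tested genes on a log axis. The 5 shortest genes, Nedd8, Rnf7, Skp1a, Ube2m and Cops6, are the 5 lowest points.

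Outside the 34 genes, the other parts of the ligases were read from lists of fixed membership. Of 90 tested cullin-RING subunits and receptors, limma called none in either direction (0 of 90), with a median log2 fold change of -0.18, and 0.09 after scaling. An unadjusted limma p under 0.05 was seen for 3 of the 90 as deposited and for 9 after scaling. The shares over all tested genes were 7.6% and 10.7%. The most abundant, Elob, a subunit of the Cul2 and Cul5 ligases, averaged 185 ± 114 FPKM in DEN+CCl4 and 215 ± 24.1 FPKM in Control liver. The next, Klhdc3, a receptor of Cul2, averaged 22.3 ± 12.4 FPKM in DEN+CCl4 and 29.7 ± 3.66 FPKM in Control liver. Of 25 tested ubiquitin-conjugating enzymes, ARIH ligases and other regulators, limma likewise called 0 (0 at an unadjusted p under 0.05), with a median of -0.30, and 0.01 after scaling. Its 2 most abundant genes, Cops9, the smallest COP9 subunit, and Cdc34, the conjugating enzyme of SCF ligases, had log2 fold changes of -0.66 and -0.40 (limma adjusted p = 0.996 for both).

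The genes of the series title were likewise not called. Sdha and Sdhb, subunits of succinate dehydrogenase, had log2 fold changes of -1.20 and -1.18 (limma adjusted p = 0.826 and 0.972). Yap1 read 0.64, 4.43 and 0.93 FPKM in DEN+CCl4 and 2.41, 2.81 and 2.68 FPKM in Control, and Wwtr1, which encodes TAZ, 1.81, 2.85 and 0.84 FPKM in DEN+CCl4 and 1.86, 1.35 and 2.05 FPKM in Control liver. Of 16 proliferation genes 1 was tested, Pcna, at -0.19 (limma adjusted p = 0.996), and Ccnb2, the second by level, stayed under the limit at 0.860 ± 0.325 FPKM in DEN+CCl4 and 0.550 ± 0.200 FPKM in Control liver. The DEN+CCl4 mean was the higher one for 11 of the 16 genes, and for 15 after scaling. As deposited it was the lower one for Birc5, Aurka, Rrm2, Tyms and Pcna. Of the 15 that were not tested, 6 were higher in every DEN+CCl4 library than in every Control library, against 4.25% of all genes with a mean above 0 and under 1 FPKM, and 9 were after scaling, against 7.7%. One of the 6, named after its values were seen, is Mki67, a marker of cycling cells, at 0.10, 0.21 and 0.31 FPKM in DEN+CCl4 and 0.08, 0.04 and 0.01 FPKM in Control liver. These levels are near the rounding of the table and had no test, and their part in the values of the 34 genes was not tested.

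The liver label was checked against markers, and none of the 11 hepatocyte markers in the table was at 0 in any library. Albumin (Alb) read 7482 to 24459 FPKM in DEN+CCl4 and 13751 to 23556 FPKM in Control liver, and Apoa1 read 4111 to 35125 FPKM in DEN+CCl4 and 10628 to 12689 FPKM in Control liver. Cyp2e1, a cytochrome of hepatocytes near the central vein, was the 1 of 11 tested hepatocyte markers called, at 804, 103 and 2.39 FPKM in DEN+CCl4 and 1885, 755 and 2239 FPKM in Control liver (log2 fold change -4.49, limma adjusted p = 0.00885, and 0.454 after scaling). Of the 11, 10 had a log2 fold change below 0, with a median of -1.56, and 4 had an unadjusted limma p under 0.05; after scaling 6 were below 0, with a median of -1.10, and 2 had such a p. Summed FPKM of the hepatocyte markers, most of it Alb and Apoa1, ranged from 12732 to 65179 in DEN+CCl4 and from 31032 to 49020 in Control liver.

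The 10 stellate cell and fibroblast markers summed to 15.97 to 39.98 FPKM in DEN+CCl4 and 9.35 to 13.7 FPKM in Control liver, with none at 0 and 0 of 6 tested called (3 at an unadjusted limma p under 0.05). Dcn and Acta2, the highest of them, had log2 fold changes of 0.02 and 1.36. Of the 6 tested, 0 had a fold change below 0, and their median was 0.83. After scaling the median was 1.10, and 4 of the 6 had an unadjusted limma p under 0.05, with 0 called. Of all tested genes 7.6% had such a p as deposited and 10.7% after scaling. The 7 neutrophil markers summed to 8.69 to 23.8 FPKM in DEN+CCl4 and 3.13 to 8.31 FPKM in Control liver. Of the 3 tested S100a8 was called higher, at 3.19, 1.38 and 8.96 FPKM in DEN+CCl4 and 0.76, 0.42 and 0.34 FPKM in Control liver (log2 fold change 1.63, limma adjusted p = 0.0336, and 0.462 after scaling). S100a9, the highest neutrophil marker, stood at 1.53 on that scale (limma adjusted p = 0.287). Mpo was at 0 in Control replicates 2 and 3, Elane in DEN+CCl4 replicate 2 and Control replicate 2, and Cxcr2 in Control replicate 2.

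None of the tested macrophage (7), endothelial (5), cholangiocyte (3) and lymphocyte (2) markers was called by limma, and as deposited 0 were at an unadjusted p under 0.05. After scaling 1 of the 7 macrophage and 1 of the 5 endothelial markers had such a p, against 10.7% of all tested genes, and again none was called. The 2 highest genes were Clec4f and Lyz2 for macrophages (log2 fold changes -1.50 and 0.42), Eng and Clec4g for endothelium (0.31 and -0.13), and Cd79a and Nkg7 for lymphocytes (-0.25 and 0.43). The highest cholangiocyte marker, Spp1, had 0.94. The sums were 34.4 to 68.2 FPKM in DEN+CCl4 and 41.97 to 117 FPKM in Control liver for macrophages, and 12.9 to 48.8 FPKM in DEN+CCl4 and 19.9 to 32.1 FPKM in Control liver for endothelium. They were 22.1 to 45.8 FPKM in DEN+CCl4 and 17.2 to 23.6 FPKM in Control liver for cholangiocytes, and 4.13 to 8.53 FPKM in DEN+CCl4 and 4.42 to 6.18 FPKM in Control liver for lymphocytes. Of these 4 lists the cholangiocyte and lymphocyte ones each had 1 marker at 0 in DEN+CCl4 replicate 3 and 1 in Control replicate 1. The part of these shifts in the values of the 34 genes was not tested.

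The counting limits single genes. Of the 34 genes, 14 overlap a gene on the opposite strand in GENCODE M21 between their start and end, introns included. Among them are Nedd8 with Gmpr2, Cops5 with Cspp1, Cops2 with Galk2 and Cops6 with Mcm7. Overlap of exons was not examined. Where exons do overlap, reads of such genes cannot be told apart without stated use of strand. A further check counted the 31-base words, in the transcript with each gene's longest coding sequence, that also occur in transcripts of other genes, pseudogenes included. The share was over 10% for 6 genes, at 65.5% for Gps1, 46.6% for Dcun1d1, 42.1% for Rnf7, 41.1% for Ube2f, 17.5% for Cops3 and 14.4% for Rbx1, so their values are uncertain. It was 0% for Nedd8 and Cul1 and 3.98% for Cul4a.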

How the data were processed

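The authors deposited FPKM values in 1 table, with a column for each of the 6 libraries per the file headers, written to 2 decimals. HISAT, StringTie and the GRCm38 genome appear in the submitters' processing notes; versions, settings, annotation and strandedness are not stated in the sources used here. Libraries were made from poly(A)-selected RNA, per the labels' protocols. With no counts in the table, read depth is unknown, and no interval for counting error is given. Because FPKM is relative to a library's total, a few dominant genes lower all others.

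From these values, genes averaging 1 FPKM or more were tested on log2(FPKM + 1) with limma 3.58.1 in R 4.3.3, two-sided, using moderated variances with a trend on expression level and group as the only term (Benjamini-Hochberg over 8528 genes, threshold 0.05). Fold changes on this scale understate changes of low genes. The 95% intervals use limma's standard errors with 219 degrees of freedom as deposited and 7.66 after median-ratio scaling. Ratios and shares within a library had exact two-sided permutation tests. Tables and figures used Python 3.11.15, numpy 2.4.6, pandas 2.3.3, scipy 1.17.1 and matplotlib 3.10.9. The limma fit was first tested on simulated data with independent noise for each gene. They held no shift shared by a whole library, such as that of DEN+CCl4 replicate 3. All 34 genes are described. Of other lists, up to 6 genes past the threshold are named, and a list with under 2 such genes is represented also by its 2 most abundant ones; Sdha, Sdhb, Yap1 and Wwtr1 are named whatever their values. For 1 marker that this rule names, the result is not reported here. Members and lists were chosen with earlier results of these data known. The alternatives were other pseudocounts, filters, scalings and limma settings, a replicate block and each library left out.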

Additional observations from a re-analysis of the deposited data

How the results depend on the processing

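Under all 23 alternatives limma called 0 of the members it tested (8 to 34 by setting) higher and 0 lower; their smallest limma adjusted p was 0.0741, for Dcun1d2 with array weights. Across alternatives, 465 fold changes of tested members stayed within the spread between replicates of the reported value and 49 did not. The calls over all genes, 71 higher and 55 lower, moved with most settings: 6 and 3 at a pseudocount of 0.1, 4 and 0 at 0.01, 0 and 0 with no filter, with median-ratio scaling, with quantile normalization and without the intensity trend. They were 14 and 53 at a filter of 5 FPKM, 31 and 27 after rescaling to TPM, 6 and 3 without mitochondrially encoded genes, and 287 and 134 with array weights. Leaving out each library gave 0 to 109 higher and 0 to 270 lower, with 0 and 0 without DEN+CCl4 replicate 3, and together with scaling 0 to 294 higher and 0 to 363 lower, with calls only without DEN+CCl4 replicate 1. The causes were not tested. The replicate block gave 62 higher and 32 lower; the numbers are not shown to pair the libraries, since same-numbered deviations correlated at 0.07, 0.42 and -0.15 for replicates 1, 2 and 3. Of the 10 ratios 0 had groups that did not overlap, 1 with 1 FPKM added, and 0 to 3 with a library left out (3 without DEN+CCl4 replicate 3). Of the 15 shares 1 did, and 1 to 4 with a library left out (4 without DEN+CCl4 replicate 3). Groups of fewer libraries separate more often without any difference, so the larger counts for ratios and shares were not read as differences. Unknown depth limits all genes under 1 FPKM.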
